A study of Mus musculus with 10 samples.

Results

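Mitochondrial ribosomal proteins were examined as 1 gene family in the periotic tissue of mouse embryos that had lost Tbx1 from the mesoderm. The family was taken as every gene whose symbol starts with Mrpl (large subunit) or Mrps (small subunit) followed by a digit and which has a probe set annotated to that symbol alone. This gave 77 genes, 48 of the large and 29 of the small subunit, among the 19938 genes measured. Where a gene had more than 1 probe set, the one of highest average signal was used. Mrpl53 shares its probe set with another gene and was not counted as a member.

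The samples were microdissected periotic tissue at embryonic day 12.5, which is the otic vesicle together with the mesenchyme around it, with 1 embryo on each of 10 Affymetrix Mouse Gene ST 1.0 arrays. The 5 mutants carried a T-Cre conditional knockout of Tbx1, a T-box transcription factor, and the tissue of both sides of an embryo went into 1 sample. The 5 controls were T-Cre conditional Tbx1 heterozygotes, so they too carried the Cre and had 1 altered copy of Tbx1. T-Cre acts in early mesoderm, so otic epithelium keeps Tbx1 in the mutants, and the tissue measured holds both cell types. A lower signal in such bulk tissue cannot tell fewer cells of a type from less RNA per cell.

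Mitochondria have their own ribosome, which translates the few proteins that the mitochondrial genome encodes, all of them subunits of the respiratory chain and the ATP synthase. Its RNA comes from mitochondrial DNA, but its proteins are encoded in the nucleus, made on cytosolic ribosomes and imported. Some have a counterpart in bacterial ribosomes, and others were added during the evolution of mitochondria. The large subunit joins amino acids and holds the exit tunnel for the new chain, and the small subunit reads the messenger RNA.

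The log2 signal of Tbx1 averaged 7.83 ± 0.36 in the mutants and 8.71 ± 0.31 in the controls (SD, n = 5 each). The difference was -0.88 (SE 0.17, limma adjusted p = 0.451), so Tbx1 itself did not pass the adjusted threshold. The groups overlapped, with mutant 1 at 8.40 and control 4 at 8.23. Of the marker lists for the tissue, 9 of 9 measured otic epithelium genes and 7 of 7 measured periotic mesenchyme genes had a mean log2 signal above 5. Relative to its control mean, the otic epithelium list averaged between -0.20 and -0.067 in mutants and between -0.086 and 0.10 in controls, with 7 of 9 genes lower in mutants and 1 at an unadjusted limma p under 0.05. The periotic mesenchyme list averaged between -0.37 and 0.022 in mutants and between -0.10 and 0.062 in controls, with 6 of 7 genes lower and 0 at that level. Over all genes, 4.7% were higher and 3.11% lower in mutants at that level. All 10 neuron markers were higher in mutants, 4 of them at that level. The mean of the list lay between -0.092 and 0.76 in mutants and between -0.57 and 0.44 in controls. All 10 cartilage markers were lower, 5 at that level, with list means of -0.76 to 0.042 in mutants and -0.39 to 0.26 in controls. Skeletal muscle markers were lower for 8 of 8 genes, 4 at that level. Their list means were -0.53 to 0.15 in mutants and -0.23 to 0.24 in controls. All 5 endothelium markers were higher, 2 at that level, with list means of -0.12 to 0.35 in mutants and -0.056 to 0.086 in controls. All 5 measured red blood cell markers were lower, 0 at that level. Their list means were -0.60 to 0.015 in mutants and -0.54 to 0.82 in controls. Of 7 measured macrophage markers, 4 were higher and 3 lower, with 1 lower at that level. No marker passed the adjusted threshold, and the part of these cell types in the values of the ribosomal proteins was not tested.

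No mitochondrial ribosomal protein gene passed the test between mutants and controls. With limma and Benjamini-Hochberg adjustment over all probe sets with 1 symbol, 0 of the 77 genes reached an adjusted p under 0.05, and the smallest was 0.569. Over all genes measured 0.01% passed. At an unadjusted limma p under 0.05 stood 5 of the 77 genes (6.49%), against 7.82% of all genes. One of them, Mrpl32, was higher in mutants, where the share among all genes was 4.7%. The other 4, Mrpl27, Mrpl28, Mrpl17 and Mrpl12, were lower, where that share was 3.11%. The share of members was thus near that of all genes. Exact two-sided permutation of the arrays put 5 members under 0.05, namely Mrpl32, Mrpl27, Mrpl28, Mrpl12 and Mrpl2, against 8% of all genes, and 0 after adjustment. No member had mutant and control arrays that did not overlap, which 1.83% of all genes had.

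These tests treat the arrays as unpaired. By replicate number, 6 members (7.79%) differed in the same direction in all 5 pairs of a mutant and a control, against 10.8% of all genes. Mrpl32 was higher in all 5 mutants of these pairs, and Mrpl27, Mrpl28, Mrpl12, Mrpl15 and Mrps6 were lower. With the number as a block in limma, 0 members passed the adjusted threshold, and 6 were at an unadjusted p under 0.05. The share of all genes at that level in the blocked fit is not given here.

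The count of 5 members at an unadjusted limma p under 0.05 in the unpaired fit depended on single arrays. It was 9 without mutant 2 and 3 without mutant 5, and the number past the adjusted threshold stayed at 0 in both. Shares of all genes without these arrays are not given here. Of the members 28 were higher and 49 lower in mutants, and of all genes 9794 were higher and 10144 lower. The median log2 difference, mutant minus control, was -0.023 over the 77 members and -0.002 over all genes. The size of this small shift depended on scaling and on single arrays: with each array centred on its median it was -0.045 over the members (21 higher), against -0.025 over all genes, and with quantile normalization -0.048 (21 higher), against -0.006. Over the members it was -0.011 without mutant 1, against -0.009 over all genes, and -0.040 without mutant 2, against -0.006. It was -0.013 without control 1, against 0.0005 over all genes, and -0.036 without control 3, against 0.0002. In linear terms, the members' differences ran from 86.1% of the control signal for Mrpl28 (95% interval 76.4 to 97.0%) to 119% for Mrpl32 (107 to 132%). A log2 difference beyond 0.1 in either direction was found for 16 of the 77 members (20.8%) and for 34.9% of all genes.

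The arrays bounded most members closely. For 63 of the 77 genes the whole 95% interval of the log2 difference lay within 0.3 of 0, and for 31 within 0.2. Of all 19938 genes, 13096 had intervals within 0.3 and 3950 within 0.2. The median standard error was 0.074. The widest reach was that of Mrpl22 on the upper side, at 0.52, and of Mrpl28 on the lower side, at -0.39. The probe sets had signal well above an empty reading, since the lowest member value on any array was 6.22 (Mrpl33), while Y-linked probe sets read 3.12 to 4.36 on the arrays of female embryos.

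**Figure D1:**
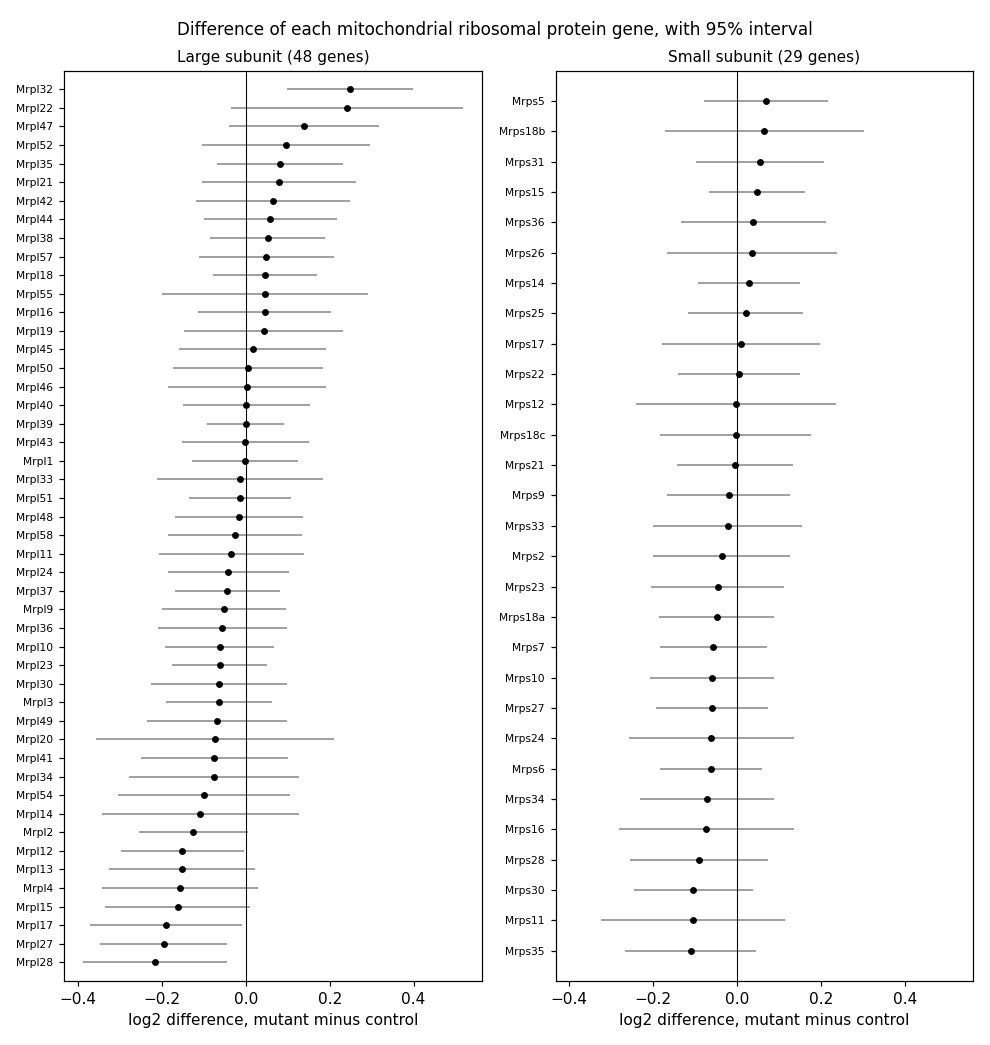
Log2 difference, mutant minus control, of each of the 48 large-subunit genes (left) and 29 small-subunit genes (right), with limma's 95% interval as a bar and 0 as a vertical line, n = 5 arrays a group. Most intervals span 0; the small-subunit points lie between -0.11 and 0.069, and the large-subunit points between -0.22 and 0.25.

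Among large-subunit genes higher in mutants, Mrpl32 (probe set 10407870) encodes a protein that the m-AAA protease of the inner mitochondrial membrane must cut before it enters the ribosome, as shown in yeast and mouse. Its log2 signal was 8.39, 8.31, 8.19, 8.33 and 8.44 in mutants 1 to 5 and 7.995, 8.04, 8.07, 8.07 and 8.23 in controls 1 to 5. The groups overlapped in 1 array each way: 4 mutants lay above the highest control, and mutant 3 lay below it. The difference was 0.25 (SE 0.069, limma adjusted p = 0.569, exact permutation p = 0.0159), and it was 0.26 within the arrays numbered 1 to 3 and 0.23 within those numbered 4 and 5. Mrpl32 was the 1 member higher at an unadjusted p under 0.05.

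Mrpl22 (10376320), whose protein lines the exit tunnel, read 7.25, 7.14, 6.83, 6.66 and 7.01 in mutants, against 6.59, 6.56, 6.58, 6.98 and 6.98 in controls. Controls 4 and 5 stood with the mutants, and mutant 4 was the mutant nearest to the other controls. The difference was 0.24 (SE 0.13, limma adjusted p = 0.659), and it was 0.50 in arrays 1 to 3 and -0.15 in arrays 4 and 5. Its standard deviation over all arrays, 0.25, was the largest of the 77 genes.

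Mrpl47 (10497703), the counterpart of a bacterial protein beside the exit tunnel, read 7.37, 7.54, 7.33, 7.49 and 7.54 in mutants, against 7.37, 7.08, 7.27, 7.43 and 7.42 in controls. In 3 mutants it lay above the highest control (difference 0.14, SE 0.083, limma adjusted p = 0.686). Mrpl35 (10545339), a protein with a bacterial counterpart, averaged 8.92 ± 0.096 in mutants and 8.84 ± 0.10 in controls (SD, n = 5 each). Mrpl52 (10415045), a protein particular to mitochondria, averaged 8.42 ± 0.13 in mutants and 8.33 ± 0.18 in controls (SD, n = 5 each). Their differences of 0.082 and 0.095 were no larger than the spread within the groups.

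Among large-subunit genes lower in mutants, Mrpl28 (10442948), an rRNA-binding protein with a bacterial counterpart, read 8.19, 8.47, 8.26, 8.31 and 8.36 in mutants, against 8.54, 8.63, 8.29, 8.61 and 8.59 in controls. Of the 5 controls, 4 lay above every mutant, and control 3 lay within the mutant range. The difference was -0.22 (SE 0.079, limma adjusted p = 0.575, exact permutation p = 0.0317). It was -0.18 in arrays 1 to 3 and -0.27 in arrays 4 and 5.

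Mrpl27 (10454093) encodes the counterpart of a bacterial protein that reaches towards the site where amino acids are joined. It read 8.75, 8.89, 8.85, 8.76 and 8.55 in mutants, against 8.97, 9.06, 8.88, 8.95 and 8.94 in controls. Only mutant 2 reached above the lowest control. The difference was -0.20 (SE 0.070, limma adjusted p = 0.575, exact permutation p = 0.0159). Its second probe set differed by less, as given with the other genes that have 2.

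Mrpl17 (10566564), another protein of the exit tunnel region, read 7.59, 7.82, 7.48, 7.74 and 7.67 in mutants, against 7.87, 7.82, 7.70, 8.04 and 7.84 in controls (difference -0.19, SE 0.083, limma adjusted p = 0.602). Mutants 1, 3 and 5 lay below the lowest control. Mrpl12 (10383389), which forms the flexible stalk that recruits translation factors and also binds the mitochondrial RNA polymerase, read 8.28, 8.32, 8.31, 8.17 and 8.19 in mutants, against 8.28, 8.35, 8.56, 8.42 and 8.41 in controls. The difference was -0.15 (SE 0.067, limma adjusted p = 0.602), with 3 mutants below the lowest control. Mrpl10 and Mrpl11, named after their values were seen because they hold the base of that stalk, differed by -0.062 (SE 0.060) and -0.035 (SE 0.080).

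Mrpl2 (10445565), a core protein beside the site of peptide bond formation, averaged 9.07 ± 0.045 in mutants and 9.20 ± 0.097 in controls (SD, n = 5 each). Mrpl15 (10352947), a core rRNA-binding protein, averaged 7.88 ± 0.16 in mutants and 8.04 ± 0.066 in controls (SD, n = 5 each). Both were lower in mutants, by a difference of -0.13 for Mrpl2 (limma adjusted p = 0.624) and of -0.16 for Mrpl15 (limma adjusted p = 0.630), and 4 of 5 mutants lay below the lowest control for Mrpl15.

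**Figure D2:**
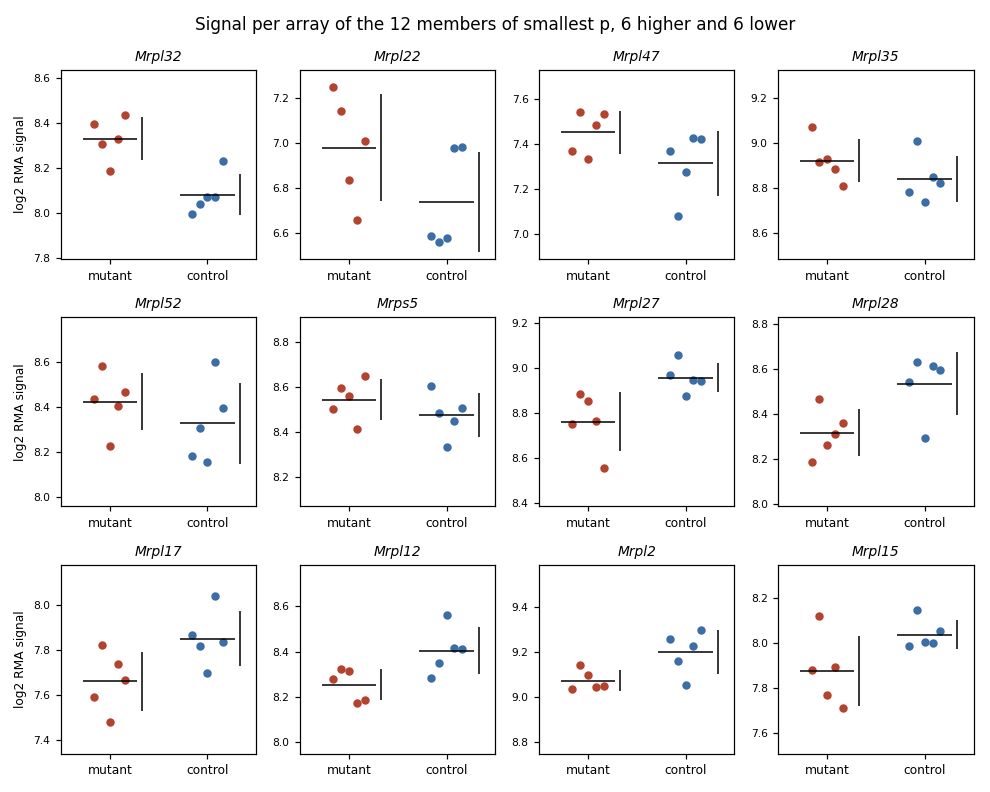
Log2 RMA signal on each array for the 6 genes of smallest p among those higher in mutants and the 6 among those lower; mutants are red and on the left of each panel, controls blue and on the right, with the horizontal line at the group mean and the bar beside it at 1 SD (n = 5). The vertical scales differ in position but span the same width; for Mrpl32 4 mutants lie above every control, and for Mrpl22 controls 4 and 5 lie among the mutants.

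Spread between embryos differed among members. Mrpl20 (10511149), an rRNA-binding protein that in bacteria acts early in assembly, read 7.98, 7.50, 7.93, 8.03 and 7.95 in mutants, against 7.86, 8.13, 8.03, 7.54 and 8.20 in controls. Mutant 2 and control 4 stood about as low as each other and apart from the rest, so 1 array in each group sets the spread. Mrpl55 (10376474), a large-subunit protein, ranged from 8.23 to 8.67 in mutants and from 8.06 to 8.67 in controls. At the other end, Mrpl39 (10440471) read 10.63, 10.64, 10.67, 10.61 and 10.61 in mutants, against 10.69, 10.59, 10.62, 10.61 and 10.65 in controls. The 95% interval of its difference ran from -0.091 to 0.091, and its standard deviation over all arrays, 0.029, was the smallest of the 77 genes. Mrps14 (10350985), a small-subunit protein with a bacterial counterpart, averaged 8.53 ± 0.056 in mutants and 8.50 ± 0.049 in controls (SD, n = 5 each).

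To show the sequence ahead of genes at both ends of the range, the 250 bases before the start of Mrpl32, Mrpl22 and Mrpl47, the 3 members with the largest differences upward, and of Mrpl28, Mrpl27 and Mrpl17, the 3 with the largest downward, are given from RefSeq (GRCm38.p6), 5′ to 3′ on the strand of the gene. Mrpl32 lies at chr13:14613038-14613287 on the minus strand, Mrpl22 at chr11:58171414-58171663 on the plus strand, and Mrpl47 at chr3:32736756-32737005 on the minus strand. Mrpl28 lies at chr17:26123253-26123502 on the plus strand, Mrpl27 at chr11:94653541-94653790 on the plus strand and Mrpl17 at chr7:105811088-105811337 on the minus strand. Capitals mark exact matches, on either strand, to letters bound by 3 factors known to act on genes of mitochondrial proteins: CCGGAAG for ETS factors such as GABPA, GCGCATGC for NRF1 and AAGATGGC for YY1.
Mrpl32: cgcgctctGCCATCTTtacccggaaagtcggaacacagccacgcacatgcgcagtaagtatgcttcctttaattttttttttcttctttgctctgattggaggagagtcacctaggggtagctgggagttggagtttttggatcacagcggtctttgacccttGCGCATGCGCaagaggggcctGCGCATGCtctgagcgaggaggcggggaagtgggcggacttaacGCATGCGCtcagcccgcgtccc
Mrpl22: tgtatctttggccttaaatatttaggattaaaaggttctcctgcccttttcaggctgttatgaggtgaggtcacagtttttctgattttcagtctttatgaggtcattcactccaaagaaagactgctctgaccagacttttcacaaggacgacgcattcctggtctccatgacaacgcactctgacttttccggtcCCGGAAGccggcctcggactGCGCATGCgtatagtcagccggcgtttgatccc
Mrpl47: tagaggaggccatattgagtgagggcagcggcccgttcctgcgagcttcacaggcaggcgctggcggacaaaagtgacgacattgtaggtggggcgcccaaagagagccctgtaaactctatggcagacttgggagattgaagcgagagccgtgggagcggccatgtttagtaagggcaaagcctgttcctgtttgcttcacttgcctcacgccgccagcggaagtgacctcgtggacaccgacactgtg
Mrpl28: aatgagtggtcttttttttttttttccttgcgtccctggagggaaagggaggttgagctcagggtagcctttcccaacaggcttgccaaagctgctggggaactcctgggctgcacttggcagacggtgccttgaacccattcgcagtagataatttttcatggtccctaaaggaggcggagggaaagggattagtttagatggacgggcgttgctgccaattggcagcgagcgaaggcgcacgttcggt
Mrpl27: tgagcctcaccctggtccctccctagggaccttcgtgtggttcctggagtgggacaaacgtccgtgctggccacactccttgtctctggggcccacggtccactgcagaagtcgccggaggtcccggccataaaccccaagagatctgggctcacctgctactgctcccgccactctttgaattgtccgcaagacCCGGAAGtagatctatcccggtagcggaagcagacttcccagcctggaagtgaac
Mrpl17: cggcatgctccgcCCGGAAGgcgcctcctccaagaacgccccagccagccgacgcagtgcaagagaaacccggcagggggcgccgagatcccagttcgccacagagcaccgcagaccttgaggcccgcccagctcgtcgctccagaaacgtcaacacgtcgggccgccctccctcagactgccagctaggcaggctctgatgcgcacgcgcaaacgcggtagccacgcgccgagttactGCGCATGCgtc
The Mrpl32 window held NRF1 letters beginning 87, 85, 66 and 22 bases before the start, the first pair being overlapping matches on opposite strands, and YY1 letters 242 bases before it. Mrpl22 had ETS letters at 53 and NRF1 letters at 33 bases before the start. Mrpl17 had ETS letters at 237 and NRF1 letters at 11 bases before it. Mrpl27 had ETS letters at 55 bases before the start and no match to the other letters. Mrpl47 and Mrpl28 had none of the 3.

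RefSeq windows running from 250 bases before to 50 after the start were matched for 68 of the 77 members, 74 windows in all. ETS letters stood in 33.8% of them, against 8.86% of all 32851 windows and 11.6% of those of protein-coding genes. YY1 letters stood in 16.2%, against 2.75% of all windows and 3.05% of the protein-coding ones. NRF1 letters stood in 10.8%, against 2.71% and 3.52%; by subunit, these were 7 of 47 large-subunit and 1 of 27 small-subunit windows. A GC box, GGGCGG on either strand, stood in 52.7%, against 35.7% of all windows and 46.2% of the protein-coding ones. TATAAA stood in 6.76%, against 13.6% of all windows. The T-box letters AGGTGTGA stood in 0 of the members' windows and in 1.28% of all windows. Matches to letters are a description of these windows, and binding was not measured.

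In the small subunit, the differences were smaller. They ran from -0.11 to 0.069, with 10 genes higher and 19 lower in mutants, and 0 of 29 had an unadjusted limma p under 0.05. The highest was Mrps5 (10475830), the counterpart of a bacterial protein that guards decoding accuracy, which averaged 8.55 ± 0.090 in mutants and 8.48 ± 0.098 in controls (SD, n = 5 each). Beyond 0.1 lay 3 genes, Mrps35, Mrps11 and Mrps30, with differences of -0.11, -0.11 and -0.10, named for that after their values were seen.

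Mrps7 (10382565), which binds the small-subunit rRNA early in assembly in bacteria, averaged 8.97 ± 0.044 in mutants and 9.03 ± 0.089 in controls (SD, n = 5 each). Mrps2 (10470547), the counterpart of a bacterial protein near the messenger RNA exit, averaged 8.52 ± 0.12 in mutants and 8.55 ± 0.11 in controls (SD, n = 5 each). The difference was -0.057 (SE 0.059) for Mrps7 and -0.037 (SE 0.075) for Mrps2, and the groups overlapped for both.

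Vertebrates have 3 relatives of the bacterial S18 protein, which sit at different places of the mitochondrial ribosome. Mrps18a (10445434) read 8.82, 8.92, 8.81, 8.92 and 8.83 in mutants, against 9.05, 8.89, 8.78, 8.96 and 8.86 in controls. Mrps18b (10450640) read 8.85, 9.08, 8.60, 8.87 and 8.60 in mutants, against 8.60, 9.04, 8.75, 8.56 and 8.73 in controls. Mrps18c (10523541) read 9.96, 10.27, 10.18, 10.37 and 10.31 in mutants, against 10.26, 9.995, 10.32, 10.23 and 10.30 in controls. The groups overlapped in all 3, and the differences were -0.048 (SE 0.063), 0.065 (SE 0.11) and -0.004 (SE 0.083).

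Some members carry a symbol that departs from where the protein is found. Structures of the mammalian ribosome place Mrps18a and Mrps30 in the large subunit, and Mrps36 is a component of the 2-oxoglutarate dehydrogenase complex. Mrps30 (10412385) read 8.46, 8.65, 8.44, 8.57 and 8.44 in mutants, against 8.67, 8.65, 8.56, 8.51 and 8.68 in controls, with 3 mutants below the lowest control (difference -0.10, SE 0.066, limma adjusted p = 0.698). Mrps36 (10411722) averaged 6.66 ± 0.13 in mutants and 6.62 ± 0.087 in controls (SD, n = 5 each). With the subunits assigned by structure, 50 genes of the large subunit had a median difference of -0.030 and 26 of the small subunit one of -0.021.

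By symbol, the median difference was -0.021 for the large and -0.023 for the small subunit. Averaged over its genes on each array and set against the control mean, the large subunit stood at -0.012, 0.057, -0.037, -0.043 and -0.078 in mutants 1 to 5 and at -0.002, -0.009, -0.066, 0.024 and 0.052 in controls 1 to 5. The small subunit stood at -0.038, 0.049, -0.043, -0.024 and -0.060 in mutants and at -0.016, 0.008, -0.020, -0.004 and 0.032 in controls. Mutant 2 was the highest mutant for both and mutant 5 the lowest, and the groups overlapped. Group means were -0.023 ± 0.050 in mutants, against 0 ± 0.044 in controls by construction, for the large subunit, and -0.023 ± 0.042 in mutants, against 0 ± 0.021 in controls, for the small subunit (SD, n = 5 each). Relative to their mean over all 10 arrays, both subunits deviated in the same direction on 9 of the 10 arrays. They share the array and its scaling.

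**Figure D3:**
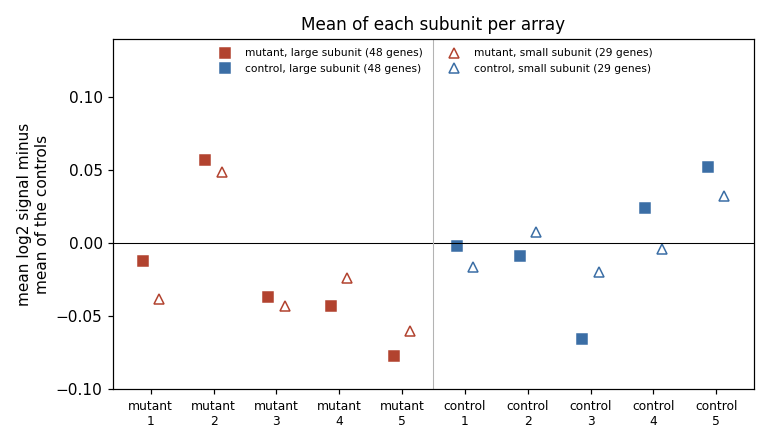
Mean log2 signal of the 48 large-subunit genes (filled squares) and the 29 small-subunit genes (open triangles) on each array, minus the mean of the 5 controls, with mutants in red on the left and controls in blue on the right. Mutant 2 is at 0.057 and 0.049 and mutant 5 at -0.078 and -0.060 for the large and small subunit, and the controls reach from -0.066 to 0.052.

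The differences scattered more from gene to gene in the large subunit. The standard deviation of the differences was 0.099 over large-subunit genes and 0.054 over small-subunit genes, against 0.12 over all genes. Beyond 0.1 lay 13 of 48 large-subunit genes (27.1%) and 3 of 29 small-subunit genes (10.3%), against 34.9% of all genes. All 8 members of smallest limma p belonged to the large subunit. The median standard error from limma was alike, 0.075 for the large and 0.072 for the small subunit. The median SD within groups was larger for the large subunit. It was 0.113 in mutants and 0.110 in controls there, against 0.092 and 0.098 for the small subunit. No test of this difference in scatter was made, since genes measured on the same arrays are not independent.

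A grouping by ancestry, made after the values were seen, cut across the subunits. Of the 47 members with a bacterial counterpart, 13 were higher and 34 lower in mutants, with a median difference of -0.052. They included all 5 members at an unadjusted limma p under 0.05, a share of 10.6%, against 7.82% of all genes. Of the 28 particular to mitochondria, 13 were higher and 15 lower, with a median of -0.001. The gap was in the large subunit, where the medians were -0.062 for 29 genes with a counterpart and 0.000 for 18 without. In the small subunit they were -0.028 for 18 and -0.035 for 10. Mrpl55 and Mrps36 were assigned to neither. These are counts and medians of genes that passed no adjusted test, and the difference between the classes was not tested.

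The arrays fell into 2 sets by number in both groups. Fos, an immediate early gene, had a log2 signal of 8.82 to 9.08 on the 6 arrays numbered 1 to 3 and of 5.49 to 5.91 on the 4 numbered 4 and 5. The labels do not say what the numbers share. Within arrays 1 to 3, 37 members were higher and 40 lower in mutants (51.9% lower), against 47.8% of all genes lower. The median difference was -0.002, against 0.007 over all genes. Mutants lay wholly above controls there for 4 members (5.19%), Mrpl32, Mrpl22, Mrpl21 and Mrpl40, against 7.91% of all genes, and wholly below for 0, against 4.32%.

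Within arrays 4 and 5, 18 members were higher and 59 lower in mutants (76.6% lower), against 53.0% of all genes lower. The median difference was -0.099, against -0.011 over all genes. Both mutants lay below both controls for 42 members (54.5%), 27 of the large and 15 of the small subunit, against 19.3% of all genes. Both lay above for 9 (11.7%), against 15.8%. The mean difference was -0.099 for the large and -0.056 for the small subunit in arrays 4 and 5, and 0.028 and -0.001 in arrays 1 to 3. With 2 arrays a group, no member passed the adjusted limma threshold within this set.

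The difference between the 2 sets of arrays was tested in limma with a term for genotype by set, chosen after the values within each set were seen. It gave 0 of 77 members and 0 of all genes at an adjusted p under 0.05, and the smallest adjusted p was 1.00. At an unadjusted p under 0.05 were 3 members (3.90%), against 2.53% of all genes. They were Mrpl22, Mrpl40 and Mrpl14, with differences of 0.50, 0.13 and 0.052 in arrays 1 to 3 and of -0.15, -0.19 and -0.35 in arrays 4 and 5. Mrpl40 lies in the region deleted in human DiGeorge syndrome, as TBX1 does. It read 9.48, 9.53, 9.54, 9.44 and 9.38 in mutants, against 9.43, 9.41, 9.32, 9.53 and 9.68 in controls, and its difference over all arrays was 0.001 (SE 0.070). It is named for that location after its values were seen.

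Some other gene lists were lower in the same arrays, and others differed little. In arrays 4 and 5 the mean difference was -0.14 for subunits of respiratory complex I and -0.15 for cytosolic ribosomal proteins. In arrays 1 to 3 it was -0.037 and -0.041. For mitochondrial ribosomal proteins without an Mrpl or Mrps symbol it was -0.0005 in arrays 4 and 5. There it was 0.020 for mitochondrial translation factors and -0.022 for ribosome assembly and rRNA modification. It was -0.040 for mitochondrial aminoacyl-tRNA synthetases and -0.042 for mitochondrial transcription and biogenesis. Cartilage markers had mean differences of -0.24 in arrays 4 and 5 and -0.53 in arrays 1 to 3. Markers of hindbrain and neural tube had mean differences of 0.50 in arrays 4 and 5 and 0.11 in arrays 1 to 3, with mutant 5 at 1.32 above the control mean, and 8 of 10 were higher over all arrays. Over all arrays this list's mean lay between -0.17 and 1.32 in mutants and between -0.29 and 0.57 in controls. Neuron markers had mean differences of 0.24 in arrays 4 and 5 and 0.46 in arrays 1 to 3, with mutant 5 at 0.76 and mutant 4 at -0.092. In the same order of array sets, periotic mesenchyme markers were at -0.17 and -0.019, and red blood cell markers at -0.37 and -0.13. Otic epithelium markers were at -0.041 and -0.19, and skeletal muscle markers at -0.24 and -0.26. Macrophage markers were at -0.023 and -0.056, and endothelium markers at 0.083 and 0.20. The part of these cell types in the lower signals of arrays 4 and 5 was not tested.

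Among the members, 8 were read by 2 probe sets each, so 85 probe sets cover the 77 genes. Numbers of probe sets on this array mostly follow the genome, and for 5 members the 20 nearest numbers belonged mainly to genes of another chromosome than the member's own. They were Mrpl27, Mrpl41, Mrpl51 and Mrps33, which have a second probe set, and Mrpl48, which has none. Such a probe set may lie at another copy of the sequence, and which transcripts it reads was not tested. For Mrpl27 the probe set used gave -0.20 (95% interval -0.35 to -0.044), and the one numbered among its chromosomal neighbours gave -0.12 (-0.30 to 0.058). Mrpl47 had both probe sets beside its neighbours, and they gave 0.14 and -0.12, with intervals of -0.040 to 0.32 and -0.33 to 0.090. Mrpl51 gave -0.014 and 0.087, and Mrpl41 gave -0.075 and -0.009. With the probe set on the gene's own chromosome wherever there was a choice, the median over the 77 members was -0.016 and 4 members had an unadjusted p under 0.05.

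**Figure D4:**
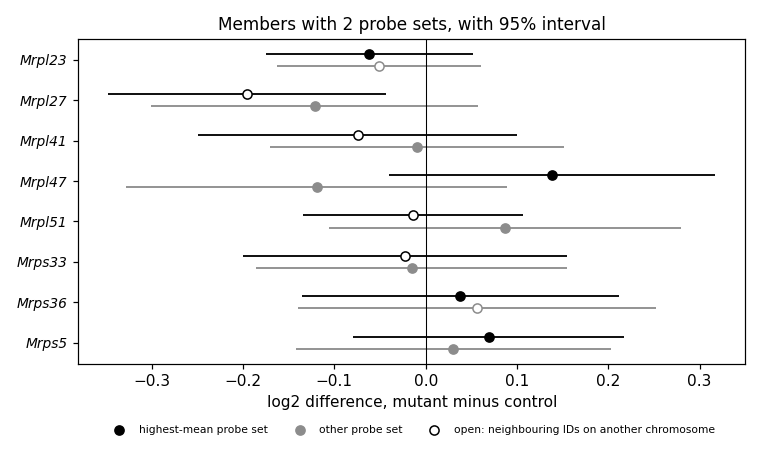
Log2 difference, mutant minus control, with 95% interval for both probe sets of the 8 members that have 2, the highest-mean one in black and the other in grey (n = 5 arrays a group). Open circles are probe sets whose neighbouring numbers belong to another chromosome; Mrpl47 is at 0.14 and -0.12, and Mrpl27 at -0.20 and -0.12.

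The rest of the mitochondrial translation system was compared through lists of other genes, and 0 genes passed the adjusted threshold in any of them. Of 4 further proteins of the ribosome without an Mrpl or Mrps symbol, 3 were higher and 1 lower. The lower one, Gadd45gip1, which sits at the tunnel exit, read 7.87, 8.20, 7.95, 7.94 and 7.75 in mutants, against 8.27, 8.23, 8.002, 8.04 and 8.22 in controls (difference -0.21, SE 0.090, limma adjusted p = 0.599). Dap3, a GTP-binding protein of the small subunit, differed by 0.11 (SE 0.070). Mutants 1, 3, 4 and 5 were below every control for Gadd45gip1, and mutant 2 was within the control range.

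Of 16 mitochondrial translation factors, 11 were higher and 5 lower in mutants, with a median of 0.066. An unadjusted limma p under 0.05 was found for 2 of them (12.5%), against 7.82% of all genes. These were Gfm2 and Mrrf, which together split the ribosome after translation ends, with differences of 0.15 (SE 0.062, limma adjusted p = 0.589) and 0.13 (SE 0.059, limma adjusted p = 0.602). Of 25 genes of ribosome assembly and rRNA modification, 15 were higher and 10 lower, with a median of 0.027. Among these, Mterf3 and Gtpbp10, both needed to mature the large subunit, had differences of 0.18 (SE 0.069) and 0.21 (SE 0.082). The 19 measured aminoacyl-tRNA synthetases were higher for 13 and lower for 6, with a median of 0.024. Wars2, which charges the tryptophan tRNA, differed by 0.23 (SE 0.089), and Nars2, which charges the asparagine tRNA, by 0.11 (SE 0.064). Of 16 genes of mitochondrial transcription and biogenesis, 7 were higher and 9 lower, with a median of -0.004. Ssbp1, which coats single-stranded mitochondrial DNA, differed by 0.17 (SE 0.077), and Gabpb1, the partner subunit of GABPA, by 0.098 (SE 0.057).

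The medians of 2 larger lists were further below 0. Over all genes, 9794 were higher and 10144 lower in mutants. Of 34 complex I subunits, whose assembly needs the products of the mitochondrial ribosome, 6 were higher and 28 lower, with a median of -0.080. At an unadjusted limma p under 0.05 stood 8 of them (23.5%), against 7.82% of all genes. Ndufb11 differed by -0.20 (SE 0.053), and Ndufs1, which carries iron-sulfur clusters, differed by 0.16 (SE 0.055). The groups did not overlap for 3 of the 34, against 1.83% of all genes: Ndufs1, higher in mutants, and Ndufb11 and Ndufb6, lower, the last named after its values were seen. Of 59 cytosolic ribosomal proteins, 9 were higher and 50 lower, with a median of -0.080. At an unadjusted limma p under 0.05 stood 16 of them (27.1%), all lower, against 3.11% of all genes lower at that level. Rpl41 and Rps12 differed by -0.25 (SE 0.061) and -0.24 (SE 0.065). Cytosolic ribosomal proteins have many near-identical copies in the genome, which a probe set may read as well. The medians of these lists and of the 77 members come from the same arrays and were not tested against each other.

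**Figure D5:**
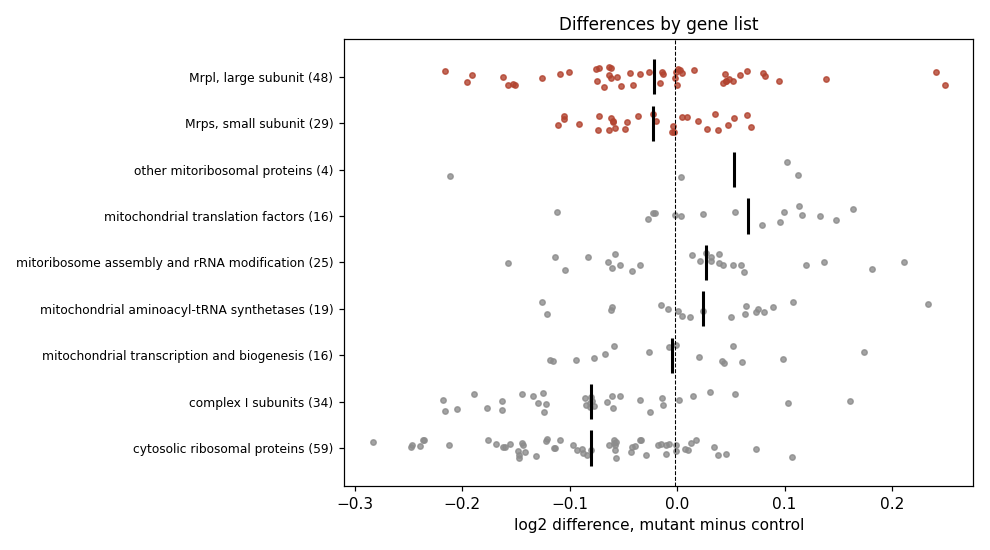
Log2 difference, mutant minus control, of each gene in 9 lists (number of genes in brackets), with the black bar at the list's median and the dashed line at the median of all genes, -0.002. Medians are -0.021 and -0.023 for the 2 subunits, 0.066 for translation factors and -0.080 for complex I and for cytosolic ribosomal proteins.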

How the data were processed

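RNA of 5 mutant and 5 control embryos was hybridised singly to Affymetrix Mouse Gene ST 1.0 arrays, after column extraction and labelling of 300 ng of total RNA as biotinylated cRNA, per the labels' protocols. The deposited values are log2 signals. Per the submitters' processing notes, the authors used Affymetrix Expression Console 1.1 and its RMA method, which sets arrays to a common scale. The array medians of the deposited values still ran from 6.19 to 6.27, and scaling them again moves small shifts. Arrays have no read depth, and their number limits the precision.

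Of 35557 probe sets, 21789 had 1 gene symbol in the platform annotation, and gene ids named 21698 of these through the RefSeq table of GRCm38.p6. All 21789 entered a two-sided test (R 4.3.3, limma 3.58.1, lmFit, then eBayes using the trend of variance on mean) with Benjamini-Hochberg adjustment at 0.05. The script was tested on simulated data. Single members were also tested by exact permutation of the arrays. The smallest p it allows with 10 arrays is 0.00794, and its smallest adjusted p over all genes was 0.435. Percentages of all genes refer to the 19938 genes at their highest-mean probe set.

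Members and lists were chosen with earlier results of these data known. Named were the 6 members of smallest p in each direction, the 3 of largest difference in each direction, the 3 of largest and 2 of smallest SD, 8 members set by name (Mrpl12, Mrps2, Mrps7, Mrps18a, Mrps18b, Mrps18c, Mrps30 and Mrps36), and the 2 genes of smallest p of each other list. Alternatives were eBayes without trend or robust, array weights, the replicate number as a block, sex or array set as a term, quantile normalization, median centring, a filter at a mean of 5, the mean of all probe sets, either array set alone, and each array left out. The choice of probe set by chromosome, the term for genotype by array set and the grouping by ancestry were added after seeing the data. Deviations from group means correlated at 0.11 to 0.236 between same-numbered mutants and controls, every one above 0.1. Between others they correlated at -0.382 to 0.385, a range that holds the same-number values. These values cannot settle whether the numbers are pairs, and the counts by replicate number are a description. The main limma fit and the exact permutations are unpaired. What the numbers stand for is not in the labels. The labels call the samples biological replicates. Sequences are RefSeq's.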

Additional observations from a re-analysis of the deposited data

Results flagged for a closer look

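In 3 of the 52 groups of 5 arrays tested, 1 array stood far from the other 4 of its group, and chance marks about 1 in 20 such groups, here 2.6. Mrpl20 read 7.50 in mutant 2, the lowest of the mutants, while the other 4 mutants lay between 7.93 and 8.03. Mrpl28 read 8.29 in control 3, the lowest of the controls. Without that array the groups did not overlap for 3 members (3.90%), against 2.69% of all genes. Mrps18c read 9.995 in control 2, below the other controls, whose values lay between 10.23 and 10.32.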

How the results depend on the processing

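No member passed the adjusted threshold under any of the 23 alternatives, where the smallest adjusted limma p of a member was 0.369, and the filter at a mean of 5 kept all 77 members. With the replicate number as a block 0 members passed and 6 had an unadjusted p under 0.05, so the block changed no call. That count ran from 2 (arrays 1 to 3 only) to 10 (quantile normalization), with 9 under median centring. In arrays 1 to 3 only, 1229 of the 19938 genes were at that level. For the block, quantile normalization and median centring the share of all genes is not given here, so these counts have no background beside them. The median of the members, -0.023, stayed below 0 throughout; it was -0.099 in arrays 4 and 5 only, -0.048 with quantile normalization, -0.045 with median centring, -0.002 in arrays 1 to 3 only, and -0.040 to -0.011 with 1 array left out. Members without overlap numbered 1 with median centring, 2 with quantile normalization, 4 in arrays 1 to 3 only, 51 in arrays 4 and 5 only, and 0 to 3 with 1 array left out. The large minus small subunit difference, 0.00064, was 0.030 in arrays 1 to 3 only and -0.043 in arrays 4 and 5 only. Some members changed sign. Mrpl39 was at 0.0068 with array weights, 0.012 in arrays 1 to 3 only and 0.0065 with sex as a term, and Mrps36 at -0.034 in arrays 1 to 3 only. In arrays 4 and 5 only, Mrpl20 was at 0.12, Mrpl22 at -0.15, Mrpl52 at -0.062, Mrpl55 at -0.17 and Mrps18c at 0.071. With 1 array left out, Mrpl20 ran from -0.18 to 0.022, Mrpl39 from -0.011 to 0.014, Mrpl55 from -0.039 to 0.11, Mrps18b from -0.0056 to 0.14, Mrps18c from -0.061 to 0.060, Mrps2 from -0.079 to 0.011 and Mrps36 from -0.012 to 0.068. The cause was not tested.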

Other observations

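A probe set annotated to both Ccdc142 and Mrpl53, which could not be counted as a member, read 7.15, 7.45, 7.33, 7.12 and 7.24 in mutants, against 7.38, 7.33, 7.39, 7.32 and 7.39 in controls. Mutants 1, 4 and 5 lay below the control range, mutant 3 within it and mutant 2 above it. The difference was -0.11, and which of the 2 genes it reads was not tested.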
